A study of Homo sapiens with 2 samples.

Results

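MALAT1, a long noncoding RNA kept in the nucleus, was lower on the array of the VHL-restored line than on the array of its parent line, on each of its 12 probe sets. MALAT1 is described here with NEAT1, TUG1, KCNQ1OT1 and MEG3, which are other long RNAs that act in the nucleus. The 5 genes were chosen from earlier results of these data, in which the difference of MALAT1 between these arrays was known, so its differences are given as a description with no test. A probe set, a group of short probes read out as 1 value, was taken as a member where the platform annotation named a single gene, 1 of these 5. That rule found 33 probe sets of 4 genes among 41091 probe sets that name a single gene, which cover 19775 genes. MALAT1 had 12, MEG3 10, TUG1 6 and KCNQ1OT1 5. NEAT1 had none, because its 9 probe sets list the microRNA gene MIR612 as well, and their values are set apart below. Counting every probe set that lists a member symbol would give 42 probe sets of 5 genes.

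The study compared 2 human cell lines with 1 array each. 786-O is a line from a clear-cell kidney carcinoma with a mutated VHL gene, and 786-VHL was derived from it and holds a functional VHL allele. VHL recognises the alpha subunits of HIF, the transcription factor of the low-oxygen response, for destruction. No treatment, time point or infection is named for either array in the labels, and whether 786-VHL is a clone or a pool of cells, and how the allele was introduced, is not given in the sources used here. No line had a second array, so no value has an error between cultures and no test was possible.

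Values are deposited intensities in arbitrary units on a linear scale. The floor was the median of all values of both arrays, 22.3, and a probe set was counted as above it where the higher of its 2 values was. Differences are log2(786-VHL + 16) minus log2(786-O + 16), so a negative value is lower in 786-VHL, and a fold on this scale understates the ratio of dim probe sets. Fixed sizes of 1.5-fold, 2-fold and 4-fold stand in place of a test. Over the 24414 single-gene probe sets above the floor the median difference was 0.04 and the SD 0.46. The brighter VHL probe set was at 28.9 in 786-O and below the floor in 786-VHL and the other was below the floor on both arrays, so the VHL probe sets did not check the labels. The renal list was not uniform: CA12, a carbonic anhydrase gene, was at 64.3 and 719, the keratin gene KRT19 at 472 and 930.1, and the cadherin gene CDH2 at 1810 and 1347. The kidney transcription factor gene PAX8 was at 1521 and 1068 and the filament gene VIM at 13034 and 12498, while the leukocyte marker PTPRC, at 11.3 and 12.1, and the endothelial marker CDH5, at 9.87 and 12.5, were below the floor on both arrays. Of the marker lists, 9 of 9 renal epithelial genes on the array were above the floor (median difference 0.05, 4 lower and 5 higher), 1 of 5 leukocyte genes (0.20), 4 of 6 endothelial genes (0.16) and 3 of 6 fibroblast and pericyte genes (-0.33), with DCN, COL3A1 and PDGFRB below it. LUM, a matrix gene of fibroblasts, was below the floor at 5.64 in 786-O and at 37.1 in 786-VHL, and whether this goes with any difference of the members was not tested.

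MALAT1 RNA accumulates in nuclear speckles, the stores of splicing factors, and its 3′ end is made by RNase P, which frees a small tRNA-like RNA. NEAT1 is transcribed from the neighbouring locus and is the scaffold of paraspeckles, nuclear bodies that hold RNA-binding proteins and edited RNAs. KCNQ1OT1 and MEG3 are imprinted: KCNQ1OT1 is made from the paternal copy, antisense within KCNQ1, and silences genes around it, and MEG3 is made from the maternal copy beside DLK1 and is often silenced in tumours. TUG1 is a conserved RNA that is found in the nucleus and the cytoplasm. The RefSeq annotation types TUG1 as protein coding and the other 4 as long noncoding RNAs.

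The promoters of MALAT1 and TUG1, the members with several probe sets that were lower in 786-VHL, are shown because the lines differ in VHL and HIF binds a short core sequence. Each window holds 300 bases around an annotated transcription start in RefSeq, build GRCh38.p14, plus strand, read 5′ to 3′. MALAT1 has 2 such starts, at chr11:65497488-65497787 and chr11:65498795-65499094, and the TUG1 window is chr22:30969015-30969314. Capitals mark ACGTG and GCGTG, the forms of the HIF core, on either strand, so that CACGT and CACGC are marked as well.
MALAT1 start 1: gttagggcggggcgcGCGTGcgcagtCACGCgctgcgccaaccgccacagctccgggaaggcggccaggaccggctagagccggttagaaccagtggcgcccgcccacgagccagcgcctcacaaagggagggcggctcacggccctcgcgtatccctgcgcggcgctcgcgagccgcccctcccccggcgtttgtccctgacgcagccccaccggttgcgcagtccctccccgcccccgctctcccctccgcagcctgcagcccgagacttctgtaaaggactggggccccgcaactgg
MALAT1 start 2: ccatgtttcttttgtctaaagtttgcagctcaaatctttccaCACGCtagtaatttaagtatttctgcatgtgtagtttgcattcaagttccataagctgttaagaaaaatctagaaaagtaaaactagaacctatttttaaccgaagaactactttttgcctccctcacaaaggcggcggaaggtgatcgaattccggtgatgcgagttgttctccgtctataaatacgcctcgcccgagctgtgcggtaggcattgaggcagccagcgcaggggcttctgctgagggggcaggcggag
TUG1: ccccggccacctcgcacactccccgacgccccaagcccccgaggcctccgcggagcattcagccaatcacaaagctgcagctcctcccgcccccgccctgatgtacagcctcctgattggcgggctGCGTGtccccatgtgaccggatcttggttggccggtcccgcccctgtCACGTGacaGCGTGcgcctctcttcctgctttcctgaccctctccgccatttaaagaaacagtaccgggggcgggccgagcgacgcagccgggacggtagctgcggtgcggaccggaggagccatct

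The first MALAT1 window held 2 matches to GCGTG and the second held 1, and ACGTG matched neither. The TUG1 window held 2 matches to GCGTG and 2 to ACGTG, the latter being 1 palindrome, CACGTG, read on both strands. Of 35116 promoter windows of the same length, 21.4% held ACGTG, 36.5% held GCGTG and 48.4% held either, so such matches are common. G and C made up 73.7% of the first MALAT1 window, 46.0% of the second and 67.7% of the TUG1 window. The 3 MEG3 windows in the table overlap and held 1, 1 and 0 matches to GCGTG. A match is a run of letters only, and these data hold no measurement of binding.

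On its 12 probe sets MALAT1 ranged from 133 to 894 in 786-O, with a median of 231, and from 7.20 to 186 in 786-VHL, with a median of 45.3. All 12 were above the floor in 786-O, at percentiles 77.6 to 95.0 of that array, and 9 were above it in 786-VHL, where the percentiles ran from 10.6 to 81.8. For each probe set the 786-O value was the higher, although the lowest 786-O value lay below the highest 786-VHL value because the probe sets differ in brightness. Intensities depend on the probes and are not compared between probe sets as amounts of RNA.

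**Figure D1:**
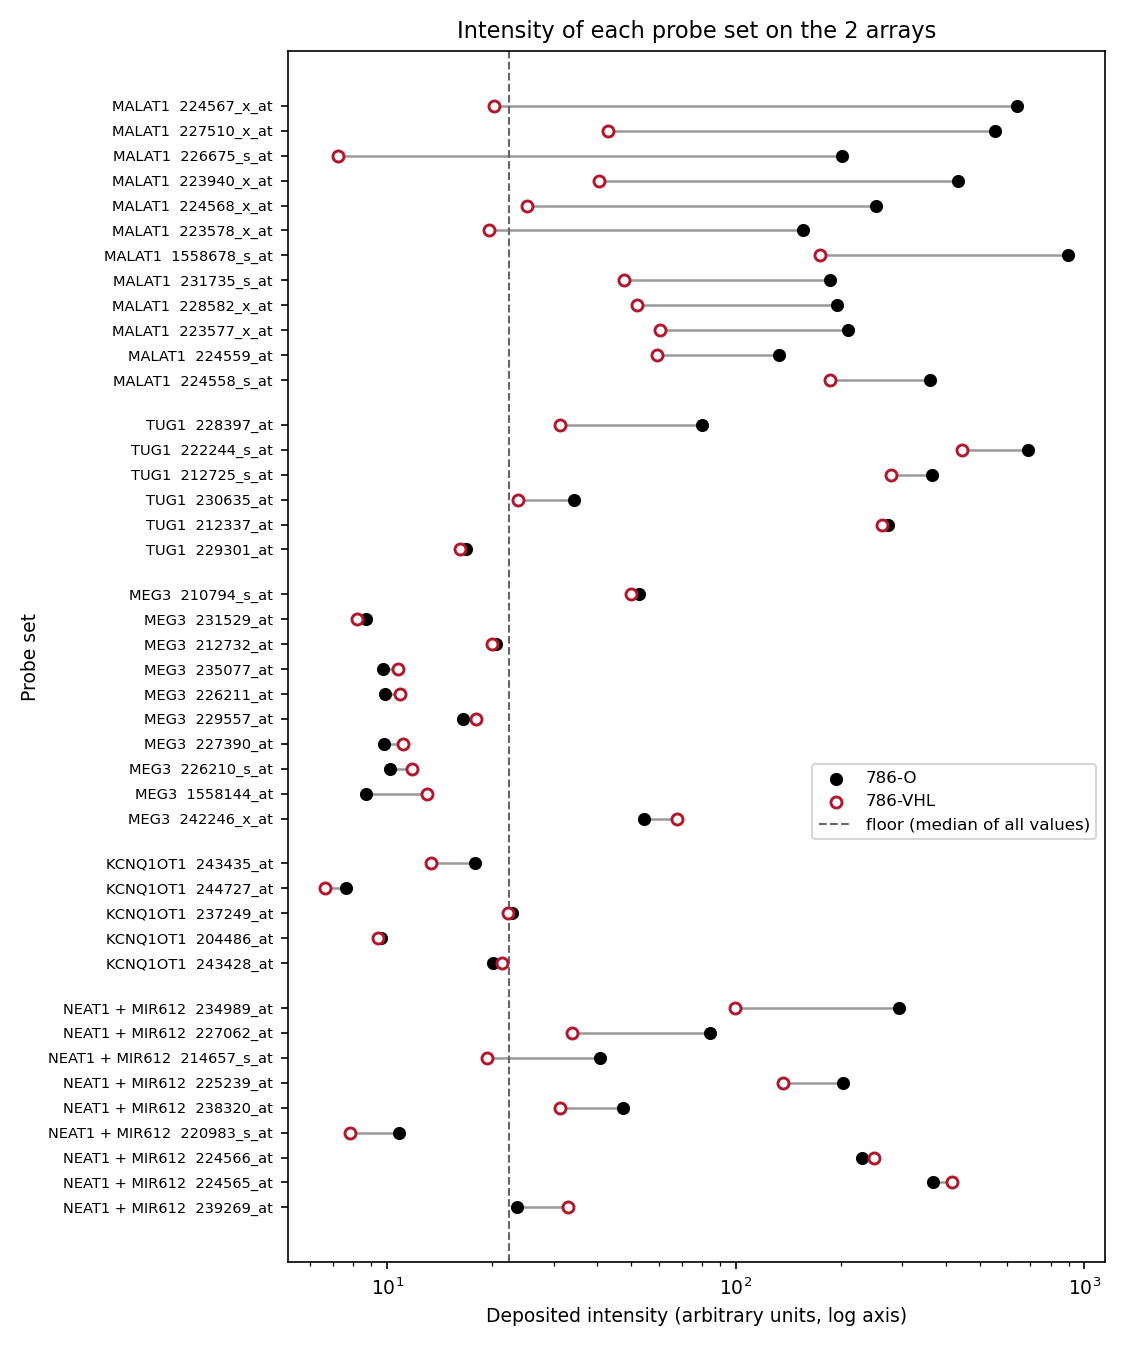
Deposited intensity, on a log axis in arbitrary units, of every probe set of the members in 786-O (black) and 786-VHL (red, open), 1 array each, with the floor of 22.3 dashed; the lines join the 2 values and carry no error. All 12 MALAT1 pairs run to lower values in 786-VHL, whereas most MEG3 and KCNQ1OT1 values lie at or below the floor on both arrays.

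The largest MALAT1 difference was on 224567_x_at, which was at 639 in 786-O and 20.2 in 786-VHL. The 786-VHL value lay below the floor, so the fold is a lower bound, at least 17.1-fold lower with that array set to the floor. By the same bound 226675_s_at, at 201 and 7.20, was at least 5.67-fold lower, and 223578_x_at, at 155 and 19.5, at least 4.48-fold lower. These 3 were the MALAT1 probe sets that were dark in 786-VHL.

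The other 9 were above the floor on both arrays, which gives a measured fold. The brightest, 1558678_s_at, was at 894 and 174, a difference of -2.26 or 4.79-fold lower. 227510_x_at was at 552 and 42.9 (9.64-fold lower), 223940_x_at at 434 and 40.5 (7.97-fold) and 224568_x_at at 253 and 25.1 (6.53-fold). The middle of the range held 231735_s_at, at 186 and 47.7, 228582_x_at, at 194 and 52.0, and 223577_x_at, at 210 and 60.7, which were 3.18-fold, 3.10-fold and 2.94-fold lower.

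The smallest MALAT1 differences were just under 2-fold. 224559_at was at 133 and 59.6, a difference of -0.98, and 224558_s_at at 361 and 186, a difference of -0.90. In all, 10 of the 12 were at least 2-fold lower and 7 at least 4-fold lower, where 2.70% and 0.360% of all single-gene probe sets above the floor were. None was at least 2-fold higher, where 1.42% of all were. MALAT1 was chosen on this contrast, so the shares are given for scale.

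The name of a probe set says how specific its probes are. Probe sets ending in _at with no letter before it were designed to match 1 transcript, those in _s_at match several transcripts, and those in _x_at hold some probes that also match other sequences. With values below the floor raised to it, the 7 MALAT1 probe sets in _x_at had a median difference of -2.71 and a range from -4.10 to -1.56. On the same scale the 4 in _s_at had a median of -1.96 and a range from -2.50 to -0.90. The only one with no such letter, 224559_at, differed by -0.98, within the range of those in _s_at. The direction was the same in each design class. The ranges in _s_at and _x_at overlapped, and a single probe set gives no typical size for its class. Across the 12, the difference went with the 786-VHL intensity (Spearman rho 0.78) more than with that in 786-O (rho -0.47). These points share 2 arrays and the 786-VHL value is part of the difference, so the coefficients are a description.

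The spread among MALAT1 probe sets was wide, with an SD of 1.00 log2 units against a pooled SD of 0.33 within the 6436 genes that had several probe sets above the floor. Among 431 genes with at least 5 such probe sets, MALAT1 had the lowest median difference, -2.27 or 4.81-fold lower, and its SD lay at percentile 98.6. With values below the floor raised to it on all probe sets, the median was -2.21, still the lowest of the 431, and the SD 0.95. The next lowest medians, named after their values were seen, were -1.67 for THBS1, which encodes an angiogenesis inhibitor, and -1.63 for GLIPR1. Of the 88 probe sets at least 4-fold lower, which named 68 genes, MALAT1 held 7 and no other gene more than 3. A gene with more probe sets can hold more of the 88, and MALAT1 had 12 above the floor. It was also chosen on this contrast, so its rank and this count are a description. This spread is between probe sets annotated to 1 gene and says nothing about the spread between cultures.

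**Figure D2:**
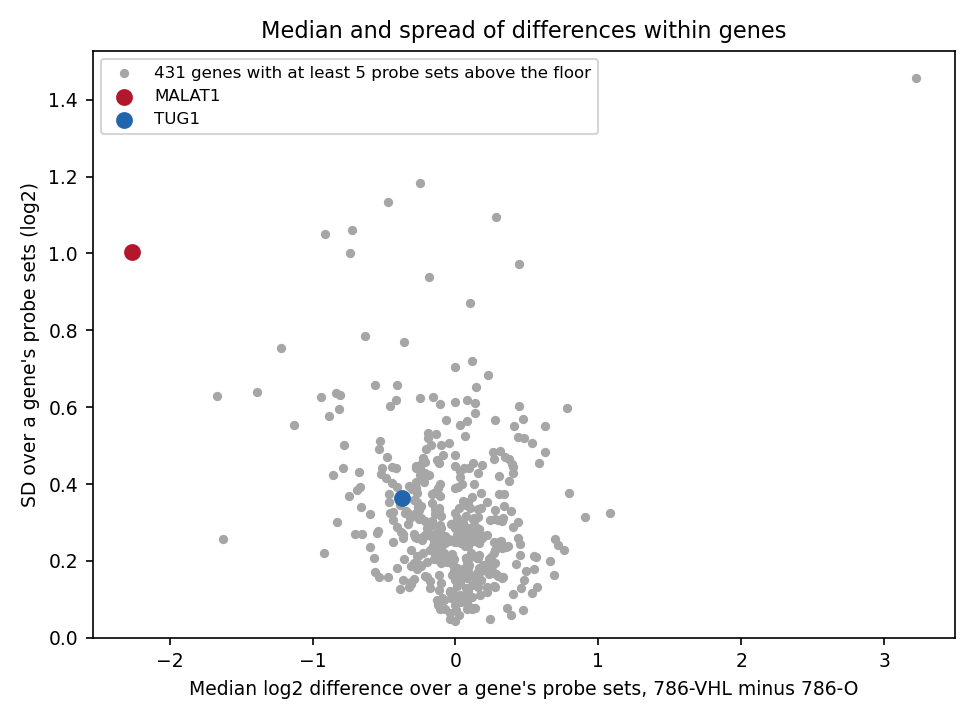
Median log2 difference (786-VHL minus 786-O) and SD over the probe sets of each of 431 genes with at least 5 probe sets above the floor; each point is a gene, with no error between cultures. MALAT1 lies farthest to the left, at a median of -2.27 and an SD of 1.00, and TUG1 lies among the other genes at -0.37 and 0.36.

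TUG1 was lower in 786-VHL on each of its 5 probe sets above the floor, by smaller amounts. Its brightest, 222244_s_at, was at 688 in 786-O and 444 in 786-VHL, 1.53-fold lower. 212725_s_at was at 365 and 278, a difference of -0.37, and 212337_at at 272 and 263, a difference of -0.045. The 3 bright probe sets thus ran from almost no difference to 1.53-fold.

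The dimmer 228397_at, at 80.1 and 31.3, was 2.03-fold lower, and 230635_at, at 34.3 and 23.7, differed by -0.34. The remaining one, 229301_at, was below the floor at 16.8 and 16.2. Thus 1 of the 5 was at least 2-fold lower and 2 at least 1.5-fold lower. Of all single-gene probe sets above the floor 2.70% and 7.91% were. The median over the 5 was -0.37 and the SD 0.36, at percentile 70.3 of the 431 genes, and 61 of those genes had a lower median. When probe sets with a suffix letter were left out, the brightest for TUG1 was 212337_at, with its difference of -0.045.

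Of the 20 member probe sets above the floor, 11 were at least 2-fold lower and 14 at least 1.5-fold lower, all of them MALAT1 or TUG1. Of all single-gene probe sets above the floor 2.70% and 7.91% were. These shares are given for scale, because MALAT1 was chosen on this contrast. None of the 20 was at least 1.5-fold higher, where 6.25% of all single-gene probe sets were. The 13 other member probe sets were below the floor on both arrays. Without the _x_at probe sets, an alternative added once the values were known, 4 were at least 2-fold lower and 7 at least 1.5-fold lower. With only probe sets that carry no suffix letter the numbers were 1 and 2.

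**Figure D3:**
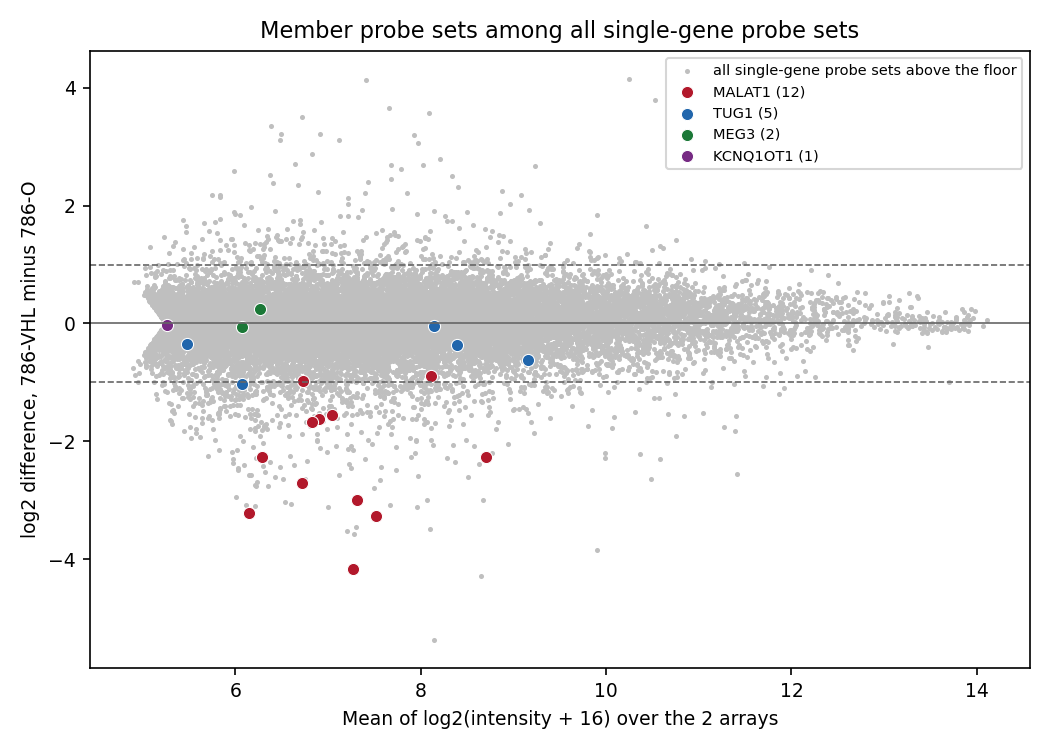
Log2 difference (786-VHL minus 786-O) against the mean of log2(intensity + 16) for all 24414 single-gene probe sets above the floor (grey) and for the members (colours, with the number of probe sets); dashed lines mark 2-fold, and each point is 1 probe set on 2 arrays with no replicate. MALAT1 points reach -4.18, where the 786-VHL value lies below the floor, TUG1 points lie between -1.02 and -0.045, and the MEG3 and KCNQ1OT1 points lie near 0.

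MEG3 was close to background. Of its 10 probe sets 8 were below the floor on both arrays, with values from 8.17 to 20.5. The remaining pair was 210794_s_at, at 52.7 in 786-O and 50.1 in 786-VHL, and 242246_x_at, at 54.5 and 67.8. They differed by -0.06 and 0.25, both less than the pooled SD within genes. Both names carry a suffix letter, and no MEG3 probe set without one was above the floor.

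KCNQ1OT1 was also at the floor. 237249_at was the brightest of its 5 probe sets, at 22.7 in 786-O and 22.2 in 786-VHL, on either side of the floor of 22.3. The other 4 were below it on both arrays, from 7.61 to 20.1 in 786-O and from 6.62 to 21.3 in 786-VHL. At these intensities a difference in KCNQ1OT1, or on the 8 dim probe sets of MEG3, was not detectable. KCNQ1OT1 lies within KCNQ1 in the annotation, which differed by -0.07 on its own brightest probe set, and the strand that the probes read is not given in the sources used here.

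The 9 probe sets that list NEAT1 together with MIR612 went both ways. The MIR612 gene lies inside NEAT1 in the annotation, and these values are attributed to neither gene. Among the brightest, 224565_at was at 368 in 786-O and 416 in 786-VHL and 224566_at at 231 and 250, differences of 0.17 and 0.11. In contrast 234989_at, at 294 and 99.1, was 2.69-fold lower and 227062_at, at 84.4 and 33.9, 2.01-fold lower.

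The rest lay between. 225239_at was at 203 and 137 (difference -0.52), 238320_at at 47.5 and 31.2 (-0.43) and 239269_at at 23.6 and 33.1 (0.31). 214657_s_at, at 40.8 and 19.3, was below the floor in 786-VHL and at least 1.48-fold lower, and 220983_s_at was below it on both. Of the 8 above the floor 5 were lower and 3 higher, with a median of -0.47 and a range from -1.43 to 0.31. NEAT1 has a short and a long form that share their 5′ part, and the position of each probe set along them is not given in the sources used here.

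MALAT1 and NEAT1 are neighbours on chromosome 11, and the genes around them are given beside them. Whether the region as a whole differed was not tested. The 5 genes above the floor on each side of MALAT1 in annotation order had differences from -0.30 to 0.34 on their brightest probe sets. The median was 0.02, with 5 lower and 5 higher. NEAT1 is not among these 10, because its probe sets list MIR612 as well. LTBP3, which encodes a latent TGF-beta binding protein, is the nearest on one side. It was at 226 in 786-O and 180 in 786-VHL, a difference of -0.30, and its 3 probe sets ran from -0.30 to 0.16. FRMD8 is the nearest on the other side, beyond NEAT1, and differed by -0.11, and DPF2, EHBP1L1 and POLA2 by 0.31, 0.34 and 0.31. Probe sets of EHBP1L1 ran from -0.25 to 0.34 and those of POLA2 from -0.02 to 0.31. None of the 10 was 1.5-fold apart, while MALAT1 differed by -2.26 on its brightest probe set. The antisense RNA TALAM1 overlaps MALAT1 in the annotation and no probe set names it, and the strand of the MALAT1 probes was not tested.

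Around TUG1, on chromosome 22, 6 of 10 neighbours were lower and 4 higher, with a median of -0.16. The 2 genes next to it on one side were lower: SMTN, which encodes the smooth muscle protein smoothelin, at 788 and 429 (-0.85) and SELENOM, a selenoprotein gene, at 865 and 601 (-0.51). On the other side MORC2 differed by -0.16 and MORC2-AS1 by 0.48. SMTN was thus lower by more than the brightest TUG1 probe set.

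**Figure D4:**
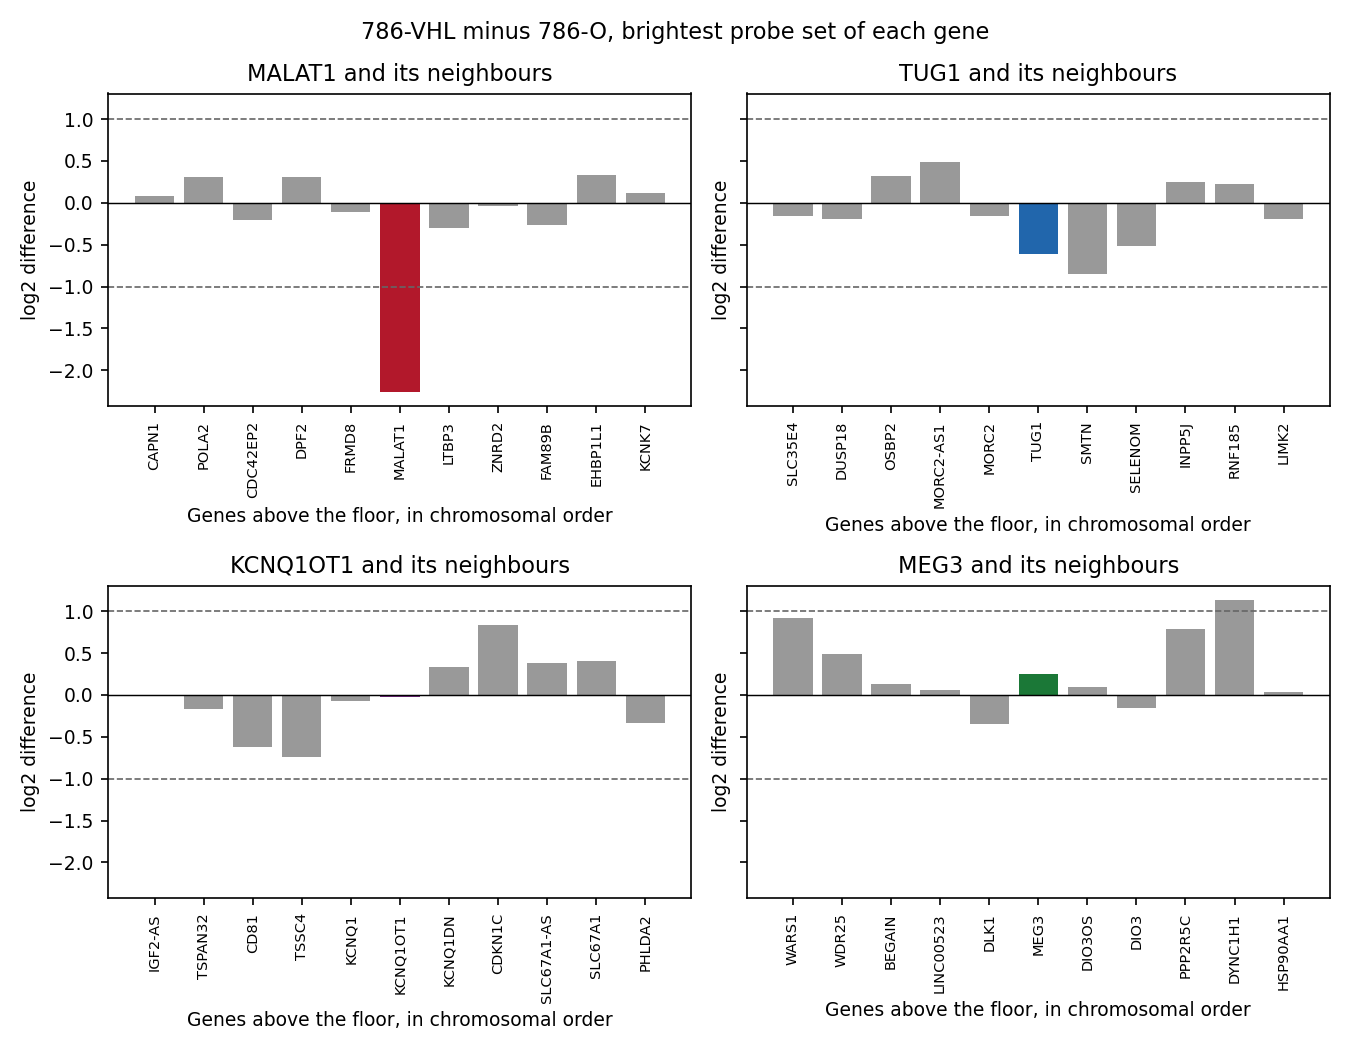
Log2 difference (786-VHL minus 786-O) of the brightest probe set of each member (coloured bar) and of the 5 genes above the floor on each side in chromosomal order (grey bars), with dashed lines at 2-fold; bars are single values with no error. MALAT1 stands at -2.26 among neighbours between -0.30 and 0.34, while SMTN beside TUG1, CDKN1C near KCNQ1OT1 and DYNC1H1 near MEG3 differ by -0.85, 0.83 and 1.14.

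The imprinted domains of the dim members were measurable through their protein-coding genes. In the KCNQ1OT1 domain 12 of 14 listed genes had a single-gene probe set. Of these 10 were above the floor, with 6 lower, 4 higher and a median of -0.12. CDKN1C, the cell cycle inhibitor that KCNQ1OT1 silences on the paternal copy, was at 74.5 in 786-O and 145 in 786-VHL, a difference of 0.83, and its 4 probe sets ranged from 0.53 to 0.83. TSSC4, at 170 and 95.3, differed by -0.74, and the tetraspanin gene CD81, at 1813 and 1173, by -0.62. CARS1, a tRNA synthetase gene, differed by 0.46. None of the 10 was 2-fold apart, 2 were at least 1.5-fold lower and 1 at least 1.5-fold higher, where 6.61% and 6.29% of all 13291 genes above the floor were.

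In the MEG3 domain and its flank 8 of 11 listed genes had a single-gene probe set. Of these 7 were above the floor, with 5 higher, 2 lower and a median of 0.13. DLK1, the paternally expressed partner of MEG3, was at 29.0 in 786-O and below the floor, at 19.5, in 786-VHL. WARS1, a tRNA synthetase gene, was the only one at least 1.5-fold apart, at 592 and 1131, a difference of 0.91. WDR25 differed by 0.49 and the transcription factor gene YY1 by 0.26 (range over its 6 probe sets -0.37 to 0.48). On the far side of MEG3, DYNC1H1, a dynein motor gene, differed by 1.14, but its 5 probe sets ranged from -0.74 to 1.14, and PPP2R5C, a phosphatase subunit gene, differed by 0.79 over a range from -0.36 to 0.79.

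Lists of genes for the proteins that work with these RNAs were read on the same probe set intensities, which measure their mRNA. Of 24 paraspeckle protein genes above the floor 10 were lower and 14 higher, with a median of 0.02 where that of all genes was 0.05. That median was below 0, between -0.043 and -0.0076, with quantile normalization, with the median difference set to 0 or with the intensity trend removed. The core paraspeckle proteins NONO, at 7743 and 7383, SFPQ, at 2253 and 2625, and PSPC1, at 309 and 228, differed by -0.07, 0.22 and -0.42, and probe sets of SFPQ ran from -0.10 to 0.77 and those of PSPC1 from -0.42 to 0.22. TAF15, which encodes an RNA-binding protein, was at 669 and 268, a difference of -1.27, with its other probe set at -0.49. MATR3, a nuclear matrix protein gene, was at 80.0 and 17.7 on the single probe set above the floor, at least 2.51-fold lower. The 2 at least 2-fold lower on their brightest probe sets compare with 2.22% of all genes. None was 2-fold higher, where 1.56% of all were. RBM3, named after its values were seen, was at 0.27 on its brightest probe set and at -1.28 on its other one. NUDT21, which sets poly(A) sites, was the only one at least 1.5-fold higher, at 0.77.

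Of 24 genes of nuclear speckles and SR proteins 20 were higher and 4 lower on the brightest probe set of each. Their median was 0.14, where that of all genes was 0.05. None was 1.5-fold apart on that probe set, and with the intensity trend removed 18 were higher and 6 lower. Other probe sets above the floor, named after their values were seen, lay at -3.58 for SRSF6, -1.76 for SRRM2 and -1.11 for U2AF2. On the higher side they reached 0.81 for DYRK1A and 0.76 for SRSF10. SF3B1, a component of the U2 splicing particle, differed by 0.44, SRRM1 by 0.41, SRSF11 by 0.40 and TRA2A by 0.40, but probe sets of SF3B1 ran from -0.74 to 0.73. The genes for end processing and decay of these RNAs gave 15 higher and 3 lower of 18, with a median of 0.25. With the intensity trend removed 14 were higher and 4 lower, with a median of 0.19. POP5, a subunit of RNase P, was at 723 and 1226, a difference of 0.75, and POP1, another, differed by 0.47. The methyltransferase gene METTL3 differed by 0.54 (range over probe sets -0.34 to 0.54), and the nuclear exosome gene EXOSC10 by 0.49. RBM7, of the nuclear exosome targeting complex and also in the paraspeckle list, differed by -0.46.

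A list of 15 genes covered PRC2 and G9a, chromatin complexes that bind several long noncoding RNAs, and 2 DNA methylation genes, DNMT1 and UHRF1. Of the 15, 10 were higher and 5 lower, with a median of 0.14. DNMT1 and UHRF1, named because they are of neither complex, were among the lower ones, at -0.29 and -0.12. The catalytic gene EZH2 was at 465 and 479, a difference of 0.04. RBBP4, a histone-binding subunit, differed by 0.75 over a range of -0.34 to 1.14 among its 5 probe sets, JARID2 by 0.49, RBBP7 by 0.39 and PHF19 by -0.50, with another PHF19 probe set at 0.14. None was 2-fold apart and RBBP4 alone was at least 1.5-fold higher, where 6.29% of all genes above the floor were.

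**Figure D5:**
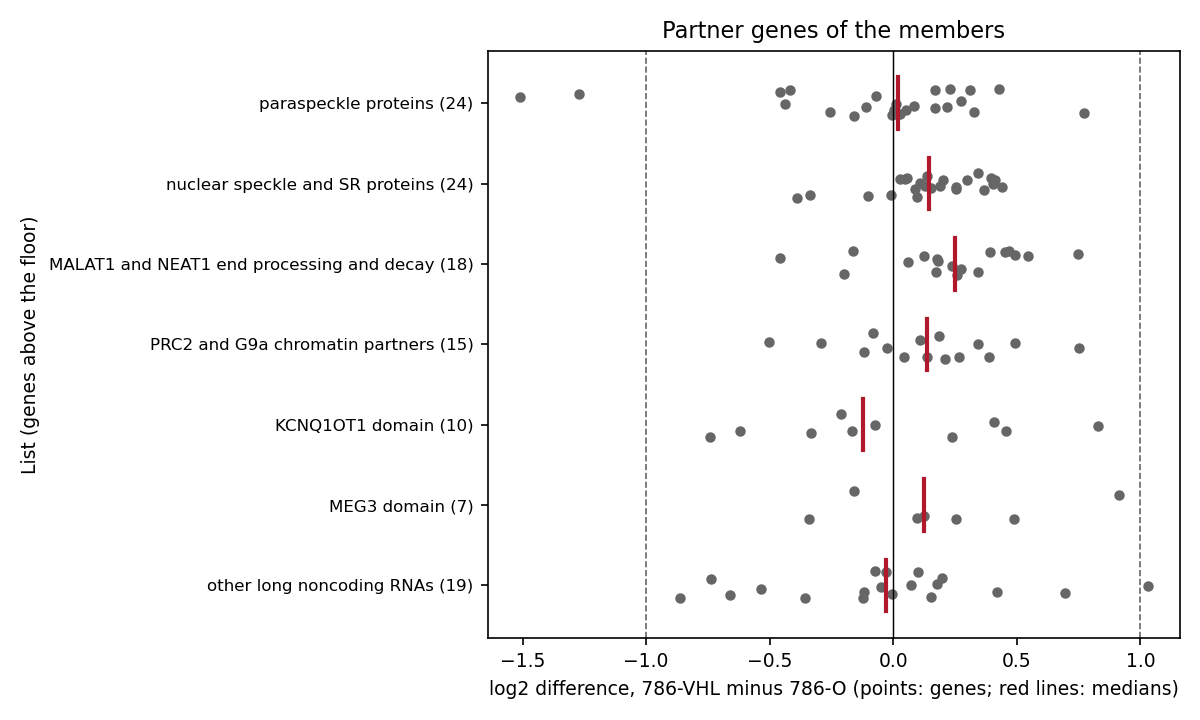
Log2 difference (786-VHL minus 786-O) of each gene above the floor in 7 lists of partners, domains and other long noncoding RNAs, with the number of genes in brackets; points are genes, red lines list medians and dashed lines 2-fold, with no error between cultures. Medians lie between -0.12 and 0.25, and TAF15 and MATR3 are the only points beyond 2-fold on the lower side.

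Of 709 genes typed as long noncoding RNAs above the floor, 239 were lower, 450 higher and 20 equal, with the differences mostly small. Of these, 10 were at least 2-fold lower and 8 at least 2-fold higher, or 1.41% and 1.13%, where 2.22% and 1.56% of all genes above the floor were. With values below the floor raised to it, 8 were lower and 8 higher by that size. The median of the 709 was 0.08 against 0.05 over 12334 protein-coding genes. On the brightest probe set of each gene MALAT1, 4.79-fold lower, and UCA1, an RNA known from bladder cancer and named after its value was seen, were lowest of the 709. UCA1 was at 167 in 786-O and below the floor, at 18.1, in 786-VHL, which made it at least 4.77-fold lower and gives it no order against MALAT1.

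In a list of 40 other long noncoding RNAs 25 had a single-gene probe set. Of these 19 were above the floor, 11 lower and 8 higher, with a median of -0.03. NORAD, which binds PUMILIO proteins, was at 1294 and 705, a difference of -0.86, with its other probe set at -1.40. OIP5-AS1, a cytoplasmic RNA that binds HuR, was at 525 and 309, a difference of -0.74, with probe sets from -1.08 to -0.57. The third at least 1.5-fold lower, named after its value was seen, was SNHG17, at 561 and 349. Thus 3 of the 19 were at least 1.5-fold lower and 2 at least 1.5-fold higher, where 6.61% and 6.29% of all genes above the floor were. LINC00467 was higher, at 54.6 and 128 (1.03, with another probe set at 1.27), and was the only one 2-fold apart. Of all genes 2.22% were at least 2-fold lower and 1.56% at least 2-fold higher. PSMB8-AS1, below the floor in 786-O, was at least 1.60-fold higher, and its other probe set held the same value on both arrays. In bulk RNA of a culture, fewer cells with an RNA and less of it in each cell cannot be told apart.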

How the data were processed

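Total RNA extracted with Trizol was labelled with biotin and hybridised to 1 array for each line, per the labels' protocols. The authors deposited 1 intensity per probe set and array, on a linear scale as the values show. R 2.10 is the sole tool that the submitters' processing notes name. How background, scaling between arrays and probe summary were handled was not given in the sources used here, and any such step may compress or shift differences. On both arrays 2127 of 54613 probe sets held exactly the same value, 432 of them above the floor and none of a member. The quartiles were 9.97 and 109 in 786-O and 10.1 and 105 in 786-VHL.

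Probe sets were named through the platform annotation, which can be old, and 41037 of the 41091 single-gene ones got a current symbol by Entrez number. The 1801 with several genes were not used for genes. A gene was represented by its probe set with the highest mean intensity. The 2 columns are the only value columns of the table. Genes named are all members, the 5 neighbours on each side, and of each list up to 4 genes with the largest difference plus SFPQ, NONO, PSPC1, EZH2, CDKN1C and DLK1, unless stated. VIM, PTPRC, CDH5, DCN, COL3A1 and PDGFRB are given as cell type markers and fall outside that rule, while the leukocyte and endothelial lists are given by their counts. VHL and EPAS1 were planned as a check of the labels. The VHL probe sets did not give one, and EPAS1 was at 367 in 786-O and 799 in 786-VHL on its brightest probe set. With 2 arrays no likeness of pattern between genes could be measured. The members and lists were chosen with earlier results of these data known. Promoter sequences are from RefSeq, whose table held 2 windows for MALAT1, 1 for TUG1 and 3 for MEG3. The calculation of differences was tested on simulated data, with large differences planted on bright probe sets and less noise than the spread of these data. The floor, differences on dim probe sets and list medians were not part of that test. Python 3.11.15, numpy 2.4.6, pandas 2.3.3, statsmodels 0.14.6 and matplotlib 3.10.9 were used.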

Additional observations from a re-analysis of the deposited data

How the results depend on the processing

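The alternatives were quantile normalization, removal of the intensity trend, a median difference set to 0, pseudocounts of 1 and 64, no floor or a higher one of 107, a gene's median over its probe sets, and probe sets without suffix letters. Under the 5 that change scale or pseudocount all 12 MALAT1 and all 5 TUG1 probe sets above the floor were lower in 786-VHL. A pseudocount cannot change a sign, and setting the median difference to 0 lowered every value. Neither could therefore have turned these probe sets higher. Under the same 5, 10 or 11 MALAT1 probe sets were at least 2-fold lower, with medians from -2.64 (pseudocount 1) to -1.61 (pseudocount 64). Without suffix letters MALAT1 was at -0.98 and TUG1 at -0.045, and the members had 1 probe set lower by 2-fold or more and 2 by 1.5-fold or more, with fewer probe sets used. Without _x_at probe sets, chosen after the data were seen, the numbers were 4 and 7. With the NEAT1 and MIR612 probe sets, also added later, they were 13 and 17. With the higher floor the MEG3 domain median was 0.26, and without a floor that of fibroblast and pericyte markers, -0.33 over 3 genes, was 0.054, over other genes in both cases. Of 316 alternative values 292 stayed within limits set by the spread within genes or 1.5 times, and 24 moved further. List medians had a narrower limit, under which the MEG3 domain median, from 0.13 to 0.26, counted as moved. Member probe set differences made up 16 of the 24, nearly all for MALAT1 and the others for TUG1, under pseudocounts 1 and 64. The MALAT1 and TUG1 differences without suffix letters also moved, as did the counts of lower probe sets without them or without _x_at. No MEG3 or KCNQ1OT1 difference moved. The paraspeckle median of 0.02 turned negative, to between -0.043 and -0.0076, under quantile normalization, trend removal and a median difference of 0, and MEG3, at 0.25, was at -0.024 without suffix letters, on a probe set below the floor. No paired analysis was possible because there was a single array of each line, and no replicate could be left out. Dim probe sets limit MEG3 and KCNQ1OT1.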
